A study of Rattus norvegicus with 44 samples.

Results

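The NMDA and AMPA receptor subunits are the proteins that form the main ionotropic glutamate receptors of excitatory synapses. Their transcripts were measured in the dentate gyrus (DG), the part of the hippocampal formation that holds the granule cells. Every row whose gene symbol was Grin1, Grin2a, Grin2b, Grin2c, Grin2d, Grin3a, Gria1, Gria2, Gria3 or Gria4 was taken, and their rows were added up per gene identifier. All 10 genes were found among 18347 gene identifiers, 6 of them NMDA receptor subunits and 4 AMPA receptor subunits, and all 10 were among the 15598 genes tested.

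Each of 44 male F344 rats gave 1 DG library. The young group (YNG, n = 10, vehicle, 6 months of age) was compared with older rats given vehicle (AV, n = 12), ABT-263 (AA, n = 11) or dasatinib with quercetin (ADQ, n = 11). ABT-263, an inhibitor of BCL2 family proteins, and dasatinib with quercetin, a kinase inhibitor with a plant flavonoid, are senolytics, meant to remove senescent cells. Doses were 12 mg/kg of ABT-263, 1.2 mg/kg of dasatinib and 12 mg/kg of quercetin by gavage, for 5 days in each of 8 cycles before behavioral tests and in a last round after them. By the methods of the study, treatment of the older animals began at 12 months and tissue was taken at 18 months, whereas their labels state 12 months. The labels give age only, so membership of AV, AA and ADQ follows the deposited attribute table, matched on rat name. The study tested whether senescent cells outside the brain add to brain aging and cognitive decline, and its recordings of NMDA receptor responses were made in area CA1, not in the DG.

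The NMDA receptor is a cation channel that opens when glutamate and a co-agonist, glycine or D-serine, are bound and depolarization has removed the magnesium block. It pairs the obligatory GluN1 subunit (Grin1) with GluN2 subunits (Grin2a to Grin2d) or GluN3 subunits (Grin3a), and channels with GluN2B close more slowly than those with GluN2A. GluN2A gains ground over GluN2B during postnatal forebrain development. AMPA receptors (Gria1 to Gria4) carry most of the fast current, and edited GluA2 (Gria2) makes them impermeable to calcium.

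Values are normalized signal, the authors' read estimates divided by a median-ratio size factor of the library. Differences are on the log2(signal + 1) scale with standard errors and 2-sided limma p-values from 1 fit of all 44 rats, with Benjamini-Hochberg adjusted p over all 15598 genes. A gene is called here at the study's own limit, an unadjusted p below 0.05, and is said to have risen or fallen only where the adjusted p was also below 0.05. Total signal per rat ran from 14297964 to 20579982. Granule cell markers were present in every rat (Prox1, the granule cell transcription factor, at a mean signal of 2515 and C1ql2 at 5952), and so were markers of CA1 pyramidal cells (Wfs1 at 5631 and Fibcd1 at 1768), the neighboring field. The mean log2 level of 8 CA1 markers ranged from 6.85 to 11.7 between rats, with ranges of 7.33 to 10.3 for YNG, 6.85 to 11.0 for AV, 6.95 to 11.7 for AA and 7.20 to 9.67 for ADQ. Relative to YNG, 7 of 8 oligodendrocyte markers and 5 of 5 endothelial markers were called higher in AV, where 10.6% of all genes were, 0 and 2 of them past the adjusted threshold. Of 7 general neuronal markers 3 were called lower and 1 higher in AV, none past the adjusted threshold. Of 7 granule cell markers 1 was called lower, past the adjusted threshold, where 10.7% of all genes were called lower. The part of these markers in the subunit differences was not tested. In such bulk tissue, fewer cells of a type and less transcript per cell cannot be told apart.

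Rats were sorted by name into 2 series for this report. Series a holds V1 to V6 for YNG and rat numbers up to 4011 in the older groups, and series b holds V9 to V12 and numbers from 4031 on (22 rats each). The labels name no batch and do not tie the V names to the rat numbers. Which YNG rats share a series with which older rats was thus a choice made here, with earlier results of these data known. The p-values by series below therefore describe this split and are no independent support. Within series b the AV rats (4566 to 4572) share no number range with the AA and ADQ rats (4031 to 4110). Gria1 was higher in series b (log2 0.27, limma adjusted p = 0.0138), and 5.01% of all genes passed the adjusted threshold between the series.

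Each subunit was detected in every rat, and the ranges of the 4 groups overlapped for every subunit. Grin3a varied most between rats, 6.57-fold from the lowest to the highest rat, followed by Grin2d (3.41-fold) and Grin2a (3.30-fold). Gria2 (1.87-fold) and Grin1 (1.94-fold) varied least.

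**Figure D1:**
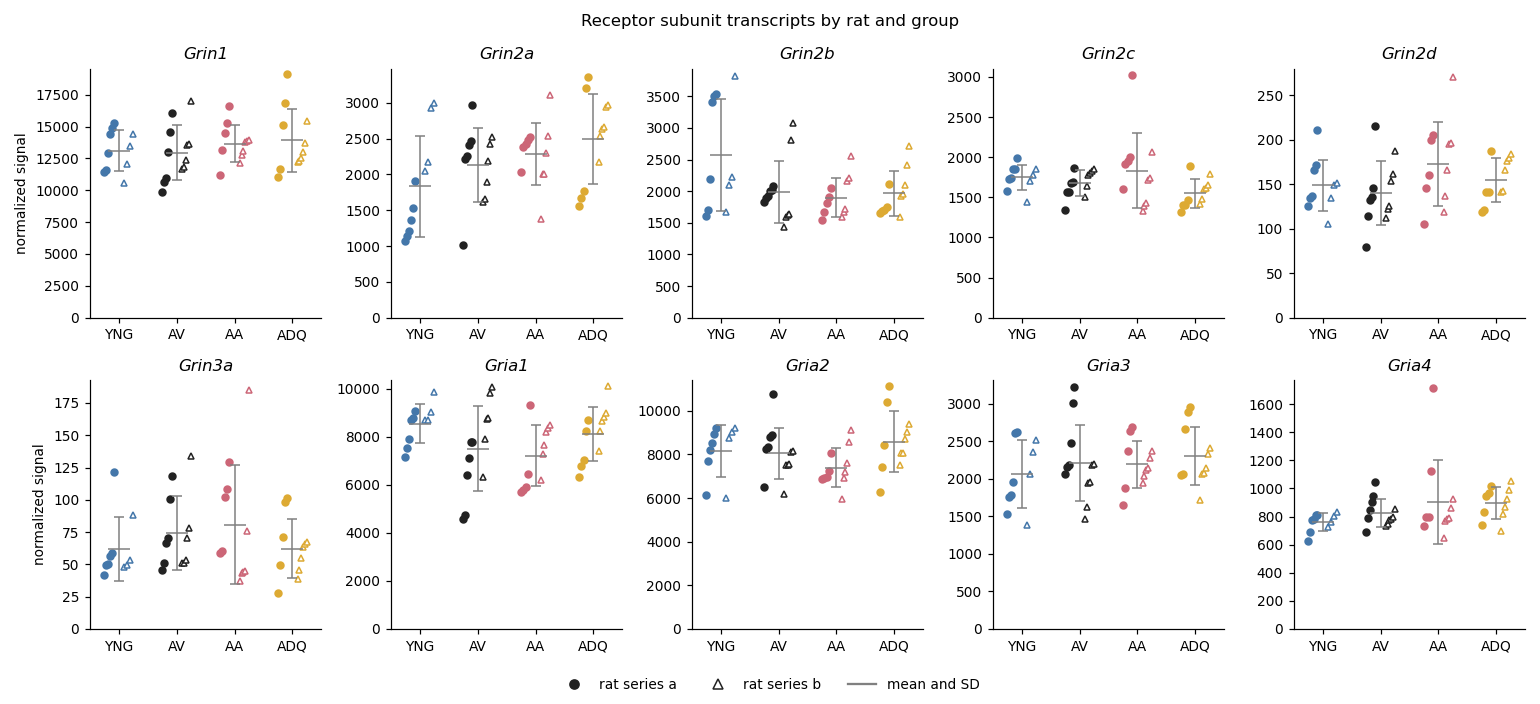
Normalized signal (y axis, linear, from 0) of the 10 receptor subunit transcripts in each of 44 rats, by group (x axis). Filled circles are rats of series a, open triangles rats of series b, and grey bars the mean and SD of the group. The YNG rats of Grin2b split into 4 rats above 3000 and 6 rats at or below 2226, and the YNG rats of Grin2a lie lower in series a than in series b.

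Among the NMDA receptor subunits, Grin2b was lower and Grin2a higher in the older rats than in YNG, and the obligatory Grin1 showed no difference beyond its error. In YNG, Grin2b signal ran from 1606 (rat V5) over a median of 2209 to 3818 (rat V12), with a mean of 2576 ± 884 (SD, n = 10). In AV it ran from 1430 over 1908 to 3073, with a mean of 1991 ± 488 (n = 12). In AA it ran from 1549 over 1808 to 2548, with a mean of 1897 ± 312 (n = 11), and in ADQ from 1588 over 1929 to 2716, with a mean of 1966 ± 351 (n = 11). The groups overlapped throughout. The YNG rats were split, since 4 of the 10 (V1, V2, V4 and V12) lay between 3408 and 3818, above every older rat, while the other 6 lay between 1606 and 2226, a range that also held 24 of the 34 older rats.

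Grin2b was called in each comparison with YNG. The log2 difference was -0.33 ± 0.14 for AV (limma p = 0.0213, adjusted 0.163), -0.38 ± 0.14 for AA (p = 0.00967, adjusted 0.0852) and -0.33 ± 0.14 for ADQ (p = 0.0228, adjusted 0.117), and these comparisons share the YNG rats. Over the 3 older groups together Grin2b fell, by 0.35 ± 0.12 on the log2 scale or 1.27-fold (limma p = 0.00445, adjusted p = 0.0386). It was the only subunit past the adjusted threshold in any comparison of the fit of all 44 rats without covariates. It was below the YNG median in 10 of 12 AV, 9 of 11 AA and 9 of 11 ADQ rats. Leaving out V1, V2, V4 or V12, 1 at a time, took the call of AV against YNG to p between 0.0546 and 0.0656 by limma, and that of ADQ against YNG to p between 0.057 and 0.0681. Leaving out any of these 4 or V3 or V9 took the limma adjusted p of the older rats together to between 0.0548 and 0.119.

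Grin2a signal in YNG ran from 1070 (V1) over a median of 1713 to 3000 (V11), with a mean of 1836 ± 707 (SD, n = 10). The means were 2137 ± 517 for AV (1018 to 2966, median 2237), 2287 ± 434 for AA (1382 to 3102, median 2378) and 2497 ± 626 for ADQ (1555 to 3360, median 2634). Here too the groups overlapped, and the lowest rat of all was AV rat 3989. Relative to YNG, the log2 difference was 0.26 ± 0.17 for AV (limma p = 0.125, adjusted p = 0.358), 0.38 ± 0.17 for AA (p = 0.0314, adjusted p = 0.147) and 0.49 ± 0.17 for ADQ (p = 0.00671, adjusted p = 0.0659). In the older rats together it was 0.38 ± 0.14 (limma p = 0.0105, adjusted p = 0.06), or 1.30-fold. Leaving out AV rat 3989 or YNG rat V10 or V11 brought AV against YNG to limma p = 0.0304, 0.0429 and 0.0398. In 6 of 44 fits that left out 1 rat, Grin2a in the older rats together passed the adjusted threshold (limma adjusted p down to 0.0155). In ADQ against YNG it did so in 5 of the 44 (limma adjusted p down to 0.0182). The call of AA against YNG was lost without V1, V2, V3, V4 or AA rat 4077, at limma p between 0.0583 and 0.0822.

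With the rats sorted in this way, the difference of Grin2a from YNG lay in series a. The 6 YNG rats of series a had 1070 to 1901 and the 4 of series b 2046 to 3000, without overlap, whereas the older groups had similar means in both series (2223 and 2051 for AV, 2366 and 2221 for AA, 2310 and 2652 for ADQ). Of the older rats of series a, 12 of 16 exceeded every YNG rat of that series. The log2 difference in AV against YNG was 0.66 in series a and -0.31 in series b, and in AA against YNG 0.81 and -0.21. The limma interaction of group and series had p = 0.00239 (adjusted p = 0.0516) for AV and p = 0.00162 (adjusted p = 0.0653) for AA, and p = 0.0475 (adjusted p = 0.556) for ADQ, with 0.70 and 0.08. Such an interaction was common, with an unadjusted p below 0.05 in 3406, 2696 and 1387 of 15598 genes for AV, AA and ADQ against YNG. Grin2b had the same sign in both series, -0.45 in series a and -0.23 in series b for the older rats together, with a limma adjusted p of 0.0182 and 0.72.

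Both genes were set against the total signal of the library. After removal of the group means, Grin2a ran against the log2 total (Pearson's r = -0.43, adjusted permutation p = 0.0388). For Grin2b r was 0.41 (adjusted permutation p = 0.0633, Spearman's rho = 0.34, adjusted permutation p = 0.0896), short of the threshold. The total exceeded 17000000 in 9 rats, 5 of them YNG, 3 AV, 0 AA and 1 ADQ. The median Grin2b signal was 2808 in these 9 rats and 1808 in the other 35, and the median Grin2a signal 1616 and 2414. With the log2 total as a covariate, the older rats differed from YNG by -0.17 ± 0.12 in Grin2b (limma p = 0.164, adjusted p = 0.704) and 0.15 ± 0.15 in Grin2a (p = 0.32, adjusted p = 0.829). Without the 9 rats the log2 differences were -0.15 ± 0.12 (limma adjusted p = 0.75) and 0.19 ± 0.16 (adjusted p = 0.768). Over all genes, the share called in this comparison went from 32.4% to 9.62% with the covariate and to 9.1% without the 9 rats. The total was above that limit in 5 of 10 YNG and 4 of 34 older rats, so the 2 measures run partly together. Both settings were chosen after the values were seen. Weighting each rat by the fit's own estimate of its reliability went the other way, to -0.59 in Grin2b and 0.68 in Grin2a, but called 55.5% of all genes.

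**Figure D2:**
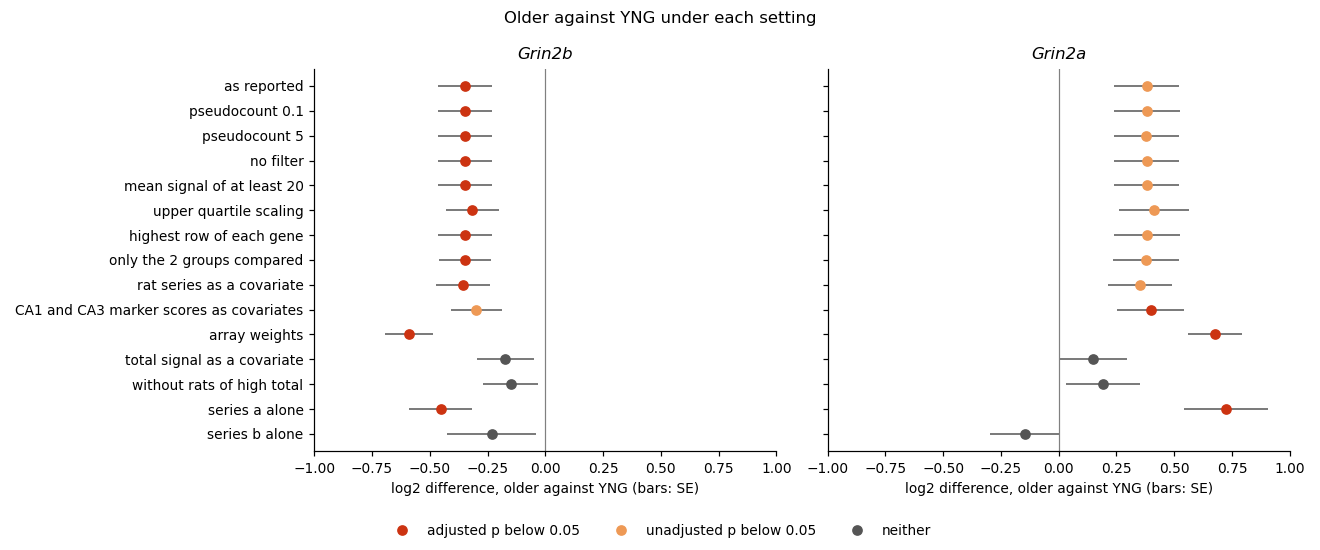
Log2 difference (x axis, bars show the SE) of Grin2b and Grin2a in all older rats against YNG, under each setting of the fit (y axis). Grin2b stayed below 0 in every setting, from -0.59 with array weights to -0.15 without the rats of high total signal, and Grin2a stayed above 0 except in series b alone (-0.15).

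The ratio of Grin2b to Grin2a was compared within each rat. Its log2 had a mean of 0.50 ± 0.88 for YNG (SD, -0.81 to 1.72, above 0 in 7 of 10 rats), -0.09 ± 0.57 for AV (-0.67 to 0.93, above 0 in 3 of 12), -0.26 ± 0.26 for AA (-0.70 to 0.20, 2 of 11) and -0.32 ± 0.34 for ADQ (-0.87 to 0.13, 2 of 11). The log2 difference of AV from YNG was -0.59 ± 0.32 (2-sided permutation p = 0.0708, adjusted over 6 ratio tests 0.425). Neither AA against AV (-0.17 ± 0.18, permutation p = 0.375) nor ADQ against AV (-0.23 ± 0.19, permutation p = 0.262) passed the threshold. All older rats against YNG, a comparison added after the values were seen, differed by -0.72 ± 0.29 (permutation p = 0.00102). This difference was -1.17 ± 0.34 in series a (exact permutation p = 0.000496) and -0.08 ± 0.36 in series b (exact permutation p = 0.769), and -0.34 ± 0.38 without the 9 rats of high total (exact permutation p = 0.0907). The series were also chosen with earlier results known, so the p-values by series are descriptive. A log2 ratio above 0.5 was seen in 8 rats, YNG rats V1 to V4 and V12 and AV rats 3989, 4567 and 4572.

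**Figure D3:**
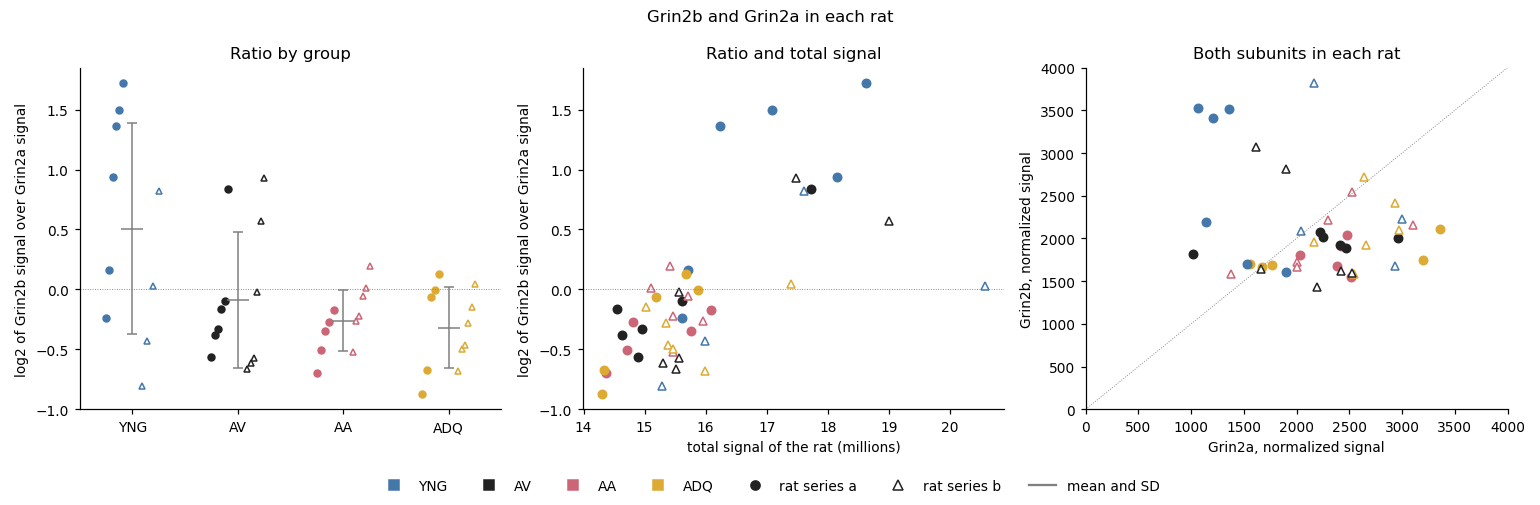
Left, log2 of Grin2b signal over Grin2a signal (y axis) by group, with mean and SD in grey. Middle, the same ratio against the total signal of the rat. Right, Grin2b against Grin2a signal in each rat, with a dotted line of equal signal. YNG rats V1 to V4 stand apart with log2 ratios from 0.94 to 1.72, and all 8 rats with a log2 ratio above 0.5 have a total of 16235094 or more.

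For the remaining NMDA receptor subunits no difference from YNG passed the unadjusted threshold, and the interval was widest for Grin3a. Grin1, the obligatory subunit, had a mean signal of 13115 ± 1632 for YNG, 12936 ± 2167 for AV, 13660 ± 1475 for AA and 13913 ± 2463 for ADQ. The older rats together differed from YNG by a log2 of 0.04, with a 95% interval from -0.12 to 0.19. Grin2c, whose protein is best known from cerebellar granule cells and astrocytes, had means of 1752 ± 156, 1677 ± 159, 1831 ± 470 and 1550 ± 178 for YNG, AV, AA and ADQ. Grin2d, a subunit of interneurons, had 149 ± 29, 140 ± 36.1, 173 ± 47.1 and 155 ± 24.8. Grin3a, which lowers calcium entry through the channel, had 61.9 ± 24.5, 74.2 ± 28.9, 80.8 ± 46.3 and 62.2 ± 22.6. In the older rats together the log2 difference was -0.07 for Grin2c (95% interval -0.22 to 0.08) and 0.05 for Grin2d (-0.18 to 0.29). For Grin3a it was 0.17 (-0.23 to 0.57), so a sizable difference in either direction is not excluded. No call was made for these 4 genes relative to YNG, and Grin2c in ADQ came nearest (log2 -0.18 ± 0.09, limma p = 0.0565, adjusted p = 0.19).

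Among the AMPA receptor subunits, Gria1 was lower in the vehicle and ABT-263 groups than in YNG. Gria1 encodes GluA1, the subunit whose insertion at the synapse accompanies long-term potentiation. In YNG its signal ran from 7157 over a median of 8694 to 9880, with a mean of 8544 ± 804 (n = 10). In AV it ran from 4582 over 7787 to 10089, with a mean of 7503 ± 1768 (n = 12). In AA it ran from 5717 over 7285 to 9324, with a mean of 7210 ± 1276 (n = 11), and in ADQ from 6335 over 8227 to 10090, with a mean of 8110 ± 1113 (n = 11). The spread was widest in AV, and 5 of 12 AV, 5 of 11 AA and 3 of 11 ADQ rats lay below every YNG rat. The log2 difference from YNG was -0.22 ± 0.11 for AV (limma p = 0.0492, adjusted p = 0.233), -0.26 ± 0.11 for AA (p = 0.0253, adjusted p = 0.132) and -0.08 ± 0.11 for ADQ (p = 0.469, adjusted p = 0.662). The AV call was lost in 24 of 44 fits that left out 1 rat. In the older rats together the call was lost in 22 of the 44 (limma p up to 0.0963), with the log2 total as a covariate (-0.11, limma p = 0.28) and without the 9 rats of high total (-0.21, p = 0.0634), while with rat series as a covariate the difference was -0.22 (limma adjusted p = 0.0434). By series, the difference in AV was -0.38 in a and -0.09 in b, with an interaction p of 0.135 (limma, adjusted p = 0.374).

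Gria4, a subunit of fast-gating receptors, was higher in ADQ than in YNG. Its mean signal was 762 ± 63.8 for YNG, 826 ± 100.1 for AV, 903 ± 297 for AA and 897 ± 114 for ADQ. YNG rats ran from 627 to 830, ADQ rats from 698 to 1054, and AA rat 3988 stood alone at 1717. The log2 difference in ADQ was 0.23 ± 0.10 (limma p = 0.0334, adjusted p = 0.142), and in AA 0.20 ± 0.10 (p = 0.0647, adjusted p = 0.217), or 0.098 without AA rat 3988 (limma p = 0.239). Without AA rat 3983 or 4107 the AA difference was called (limma p = 0.0418 and 0.0241). The call in ADQ was lost in 6 of 44 fits that left out 1 rat (YNG V1 or V3, ADQ 4006, 4007, 4031 or 4074), at limma p up to 0.0703. It was also lost with the log2 total as a covariate (0.067 ± 0.10, limma p = 0.519) and without the 9 rats of high total (0.19 ± 0.13, p = 0.167). In the older rats together the call was lost in 11 of 44 such fits and in both settings on the total.

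Gria2 and Gria3 were not called in any comparison with YNG. Gria2, which decides the calcium permeability of the receptor, had means of 8162 ± 1206, 8051 ± 1185, 7399 ± 885 and 8592 ± 1381 for YNG, AV, AA and ADQ. Gria3 had 2062 ± 451, 2210 ± 505, 2195 ± 316 and 2306 ± 389. For Gria2 in the older rats together, the log2 difference was -0.03, with an interval from -0.18 to 0.13. The log2 ratio of Gria1 to Gria2 was 0.08 ± 0.29 for YNG (SD), -0.13 ± 0.38 for AV, -0.05 ± 0.23 for AA and -0.08 ± 0.21 for ADQ, and AV differed from YNG by -0.20 ± 0.14 (permutation p = 0.179, adjusted over 6 tests 0.524). Within series a this difference was -0.46 ± 0.14 (exact permutation p = 0.00433, adjusted 0.026), and all 6 AV rats there were below 0, while in series b it was 0.03 ± 0.20 (exact permutation p = 0.876) and all 6 AV rats were above 0.

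The share of subunits called was close to that of all genes in each comparison with YNG. In AV against YNG, 2 of 10 subunits were called, where 21.3% of all genes were. In AA against YNG it was 3 of 10 against 26.6%, in ADQ against YNG 3 of 10 against 28.1%, and in the older rats together 4 of 10 (Grin2a, Grin2b, Gria1 and Gria4) against 32.4%. After adjustment, 1 of 10 subunits was called in the older rats together, where 14.9% of genes were, and 0 of 10 for AV, AA or ADQ against YNG, where 2.35%, 3.85% and 7.08% were. The median log2 difference of the 10 subunits was -0.02 for AV, 0.09 for AA and 0.07 for ADQ relative to YNG.

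**Figure D4:**
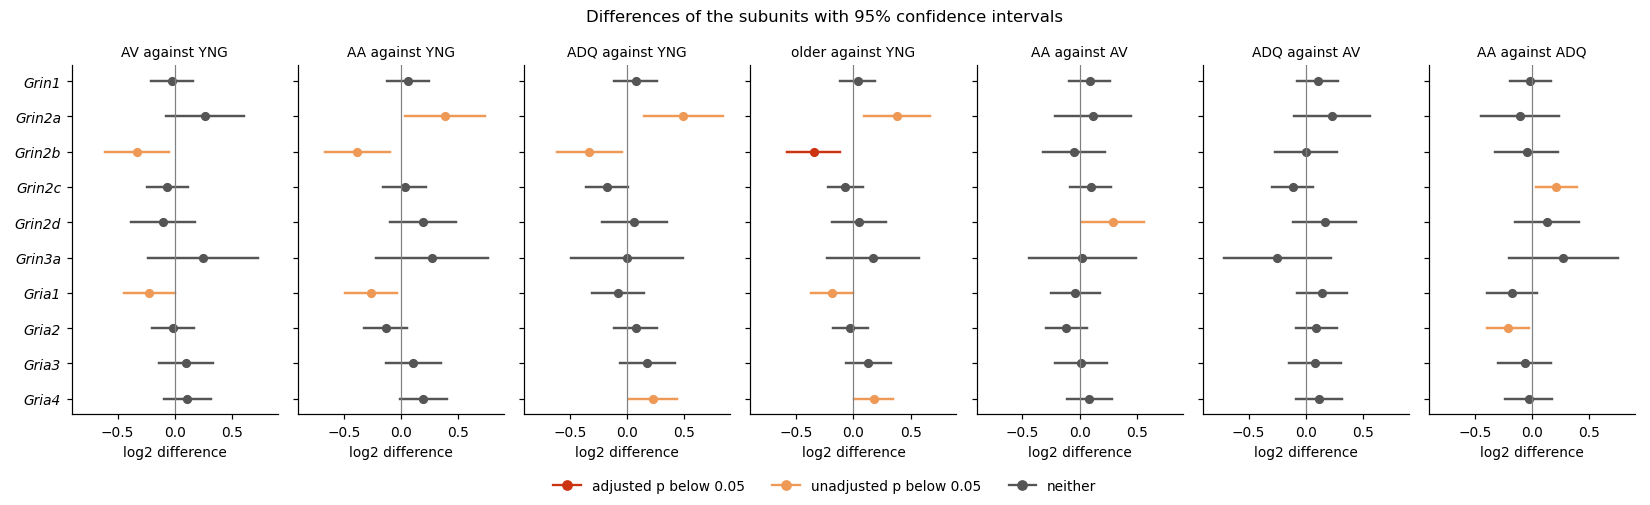
Log2 difference (x axis) and 95% confidence interval of each subunit (y axis) in 7 comparisons. Red marks an adjusted p below 0.05, reached only by Grin2b in the older rats against YNG, orange an unadjusted p below 0.05, and grey neither. Between the older groups the intervals of all but 3 differences hold 0.

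The treatment comparisons asked whether senolytics changed the subunits in older rats. In AA against AV 1 of 10 subunits was called, Grin2d, where 4.51% of all genes were. Grin2d signal was 79.2 to 215 for AV (median 134) and 105 to 270 for AA (median 166), with AA rat 4107 the highest, and the groups overlapped. The log2 difference was 0.29 ± 0.14 (limma p = 0.0364, adjusted p = 0.999), and the call was lost in 10 of 44 fits that left out 1 rat, at p up to 0.0995 without AA rat 4107. In ADQ against AV 0 of 10 subunits were called by limma at an unadjusted p below 0.05, where 9.32% of all genes were, and no gene passed after adjustment. The largest shifts there were 0.23 ± 0.17 in Grin2a (limma p = 0.177) and -0.25 ± 0.23 in Grin3a (p = 0.283), which were 0.13 without AV rat 3989 and -0.15 without ADQ rat 3994.

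For the subunits called with age, the treated groups gave no return toward the YNG level that passed the test. Grin2b differed from AV by -0.05 for AA (95% interval -0.32 to 0.22) and by 0.00 for ADQ (-0.27 to 0.27). Gria1 differed by -0.04 for AA (-0.25 to 0.18) and by 0.14 for ADQ (-0.08 to 0.36). Grin2a differed by 0.12 for AA (-0.21 to 0.45) and by 0.23 for ADQ (-0.11 to 0.56). Without AV rat 3989 these Grin2a differences were 0.026 and 0.13, and that of Gria1 for ADQ was 0.079. Gria4 differed by 0.09 for AA (-0.11 to 0.28), or -0.012 without AA rat 3988, and by 0.12 for ADQ (-0.08 to 0.32). All 8 intervals hold 0.

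In AA against ADQ 2 of 10 subunits were called, where 4.53% of genes were. Grin2c was higher in AA (log2 0.21 ± 0.09, limma p = 0.0228, adjusted p = 0.981) and Gria2 lower (-0.21 ± 0.09, p = 0.0271, adjusted p = 0.981). Grin2c in AA ran from 1329 to 3020 and in ADQ from 1319 to 1886, and without the highest rat, AA rat 3988, the difference was 0.14 (limma p = 0.085). It lay in series a, at 0.47 against -0.00 in series b (limma interaction p = 0.0072, adjusted p = 0.998). Gria2 lost its call without AA rat 4107 or ADQ rat 4006 or 4007, at limma p between 0.0587 and 0.0688.

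The table holds several unnamed rows for some genes, which were also fitted one by one, an analysis added after the values were seen. Grin2a, Grin2b, Grin2c and Grin3a have 1 row each. The difference of Gria4 lay in its second row by size, which took 32.8% of the gene's signal in YNG, 34.4% for AV, 37.6% for AA and 39.9% for ADQ. Its signal was 252 ± 79.7 for YNG and 358 ± 68.1 for ADQ (log2 0.57 ± 0.17, limma p = 0.00209, adjusted p over 20258 rows 0.0523), whereas the largest row differed by 0.13 ± 0.12 (p = 0.263). In Gria1 the largest row, with 73.7% to 74.7% of the signal, differed from YNG by -0.21 for AV and -0.25 for AA (limma adjusted p = 0.26 and 0.137), the middle row by -0.09 and -0.02 (adjusted p = 0.822 and 0.967), and the smallest row by -0.54 and -0.70 (adjusted p = 0.409 and 0.226). The 2 rows of Grin2d went opposite ways in AA against AV, the larger by 0.40 ± 0.23 (limma p = 0.0849) and the smaller by -0.28 ± 0.46 (limma p = 0.548), and neither was called. What a row stands for and how reads were shared among rows are not given in the sources used here.

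Several subunits moved with marker scores of cell types from rat to rat. Correlations over the 44 rats, after the mean of each group was removed, were computed for 10 subunits with 4 measures, 40 in all. Grin3a went with the CA1 marker score (Pearson's r = 0.62, adjusted permutation p = 0.0008, Spearman's rho = 0.57, adjusted permutation p = 0.00387), with r = 0.46 in series a and 0.71 in series b and 0.61 without the 2 rats farthest from the median score. Gria1 ran against it (r = -0.54, adjusted permutation p = 0.00424, rho = -0.49, adjusted permutation p = 0.0107), at -0.30 in series a, -0.73 in series b and -0.48 without the 2 farthest rats. Gria1 ran most against the interneuron score (r = -0.64, adjusted permutation p = 0.0006, rho = -0.66, adjusted permutation p = 0.0004), at -0.59 and -0.55 in the series and -0.66 without the 2 farthest rats. Grin3a (r = 0.37) and Gria2 (r = -0.41) also passed the adjusted threshold by r and by rho with the interneuron score. Gria3 went with the CA1 score by r alone (r = 0.38, adjusted permutation p = 0.0437, rho = 0.32, adjusted permutation p = 0.0896). Grin2b ran against the interneuron score by r alone (r = -0.41, adjusted permutation p = 0.0453, rho = -0.30, adjusted permutation p = 0.106), at -0.21 without the 2 farthest rats. The interneuron score of 8 markers had a mean of 8.67 ± 0.30 for YNG, 8.84 ± 0.31 for AV, 9.03 ± 0.19 for AA and 8.88 ± 0.18 for ADQ. Its part in the Gria1 and Grin2b differences was not tested.

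Gria2 went with the granule cell score (r = 0.43, adjusted permutation p = 0.00646, rho = 0.47, adjusted permutation p = 0.00832, 0.48 without the 2 farthest rats, 0.27 in series a and 0.66 in series b). Gria1 also went with that score (r = 0.47, adjusted permutation p = 0.0137, rho = 0.40, adjusted permutation p = 0.0371). Grin3a ran against it (r = -0.54, adjusted permutation p = 0.00567, rho = -0.46, adjusted permutation p = 0.0134). Gria3 ran against the total signal of the library (r = -0.57, adjusted permutation p = 0.003, rho = -0.55, adjusted permutation p = 0.005), at -0.20 in series a and -0.89 in series b. Gria2 ran against it by Pearson's r alone (r = -0.39, adjusted permutation p = 0.0453, rho = -0.36, adjusted permutation p = 0.0614). Gria4 ran against the total too (r = -0.49, adjusted permutation p = 0.0006, rho = -0.61, adjusted permutation p = 0.0004, -0.54 without the 2 farthest rats, -0.61 and -0.36 in the series). Grin2a ran against it as well (r = -0.43, adjusted permutation p = 0.0388, rho = -0.47, adjusted permutation p = 0.0155, -0.57 without the 2 farthest rats), at -0.85 in series a and -0.40 in series b. With CA1 and CA3 marker scores as covariates, the older rats differed from YNG by -0.30 in Grin2b (limma adjusted p = 0.0568), 0.40 in Grin2a (adjusted p = 0.0498) and -0.17 in Gria1 (adjusted p = 0.123).

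**Figure D5:**
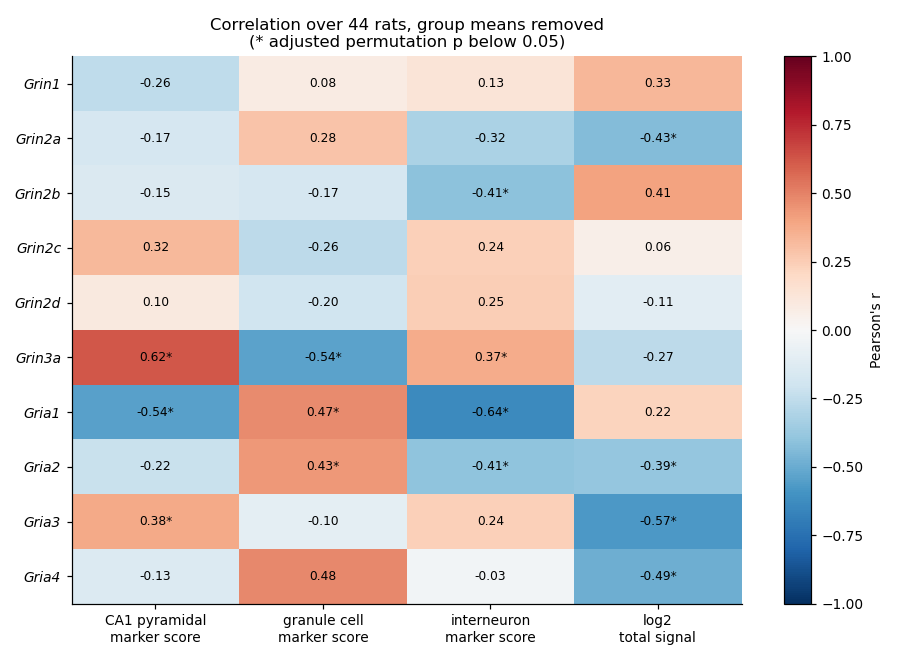
Pearson's r over 44 rats (color scale and printed values) between each subunit (rows) and 3 marker scores and the log2 total signal (columns), after removal of the group means. Asterisks mark an adjusted permutation p below 0.05, as for Grin3a with the CA1 score (0.62) and Gria1 with the interneuron score (-0.64).

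A few rats held the extreme values of several subunits. AA rat 4107 had the highest Grin2d (270) and Grin3a (185) of all rats, with the lowest Gria2 (5957), the highest CA1 score (11.7) and the lowest granule cell score (8.59). AV rat 3989 had the lowest Grin1 (9837), Grin2a (1018), Grin2d (79.2) and Gria1 (4582) and the highest Gria3 (3229), with a CA1 score of 11.0. It also had the highest endothelial (10.1), microglia (9.81), astrocyte (11.0) and oligodendrocyte scores of all rats, a granule cell score of 9.18, lower only in rat 4107, and a total of 17721237. AA rat 3988 had the highest Grin2c (3020) and Gria4 (1717), with a CA1 score of 8.96.

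The genes that varied most like a subunit over the 44 rats, after removal of the group means, were named among 13703 genes with a mean signal of at least 20, as a description. For Grin2a these were Tanc2, a postsynaptic scaffold protein (r = 0.95), Cacna1e, the R-type calcium channel (0.94), and Tnr, tenascin-R of the extracellular matrix (0.92). For Grin2b they were the transcription factors Tcf4 (0.87), Zbtb20 (0.85) and Nfia (0.81). For Grin1 they were Ggt7 (0.89), Sez6l2 (0.88) and Ptov1 (0.87). For Gria1 they were Ttc33 (0.88), Csnk2a1, a catalytic subunit of casein kinase 2 (0.81), and Snrnp200, a helicase of the spliceosome (0.80). For Gria2 they were Gdap1 (0.86), Capn7 (0.85) and Strn3 (0.84).

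Among themselves the subunits were only loosely related. The strongest relations over the 44 rats were those of Grin1 with Gria3 (r = -0.55), Gria2 with Gria3 (0.53), Grin2c with Gria2 (-0.52) and Grin1 with Gria2 (-0.51). All subunits share the library and its size factor, so these values are given with no test.

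The proteins that assemble, anchor and modify the receptors were followed in 8 fixed lists. Of 16 AMPA receptor auxiliary subunits and assembly factors tested, 1 was called higher and 5 lower in the older rats together, where 15.7% of all genes were called higher and 16.7% lower. Frrs1l, which takes part in AMPA receptor assembly, fell by 0.44 ± 0.12 on the log2 scale (limma adjusted p = 0.015). Cacng2, encoding stargazin, fell by 0.64 ± 0.22 (limma adjusted p = 0.0438) and Cacng4, another transmembrane AMPA receptor regulatory protein, by 0.28 ± 0.08 (limma adjusted p = 0.025), while Cacng7 rose by 0.26 ± 0.09 (limma adjusted p = 0.0446). The list's median was -0.16, beside a median near 0 over all genes. In AV against YNG the count was again 1 higher and 5 lower, where 10.6% and 10.7% of all genes were, with none past the adjusted threshold, led by Cacng7 (0.25, limma p = 0.0199, adjusted p = 0.159) and Frrs1l (-0.33, p = 0.0228, adjusted p = 0.167). In AA against YNG Frrs1l fell by 0.61 ± 0.14 (limma adjusted p = 0.025) and Cacng7 rose by 0.36 ± 0.11 (adjusted p = 0.0494), and in ADQ against YNG Cacng4 fell by 0.36 ± 0.10 (adjusted p = 0.0296).

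Of 9 genes of AMPA receptor trafficking and clustering, Grip2 stood out. It encodes a PDZ protein that binds GluA2 and GluA3, and it rose in AV (log2 0.80 ± 0.21, limma adjusted p = 0.031) and AA (0.82 ± 0.22, adjusted p = 0.036) and in all older rats together (0.72 ± 0.18, adjusted p = 0.00993). In ADQ against YNG it was 0.55 (limma adjusted p = 0.0952). No other member of the list was called in the older rats together. In ADQ against AV 4 of the 9 were called higher, where 3.42% of all genes were, led by Grip1 (0.27, limma p = 0.00192, adjusted p = 0.238) and Nsf, the ATPase of membrane fusion (0.20, p = 0.00958, adjusted p = 0.399).

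Of 20 kinases, phosphatases and partners of both receptor types, 3 were called higher in the older rats together and 0 lower, where 15.7% and 16.7% of all genes were. Prkca, a protein kinase C, rose by 0.40 ± 0.11 (limma adjusted p = 0.0192), Prkaca, a catalytic subunit of protein kinase A, by 0.35 ± 0.10 (adjusted p = 0.0243), and Ptpn5, the phosphatase STEP that acts on GluN2B and Fyn, by 0.39 ± 0.12 (adjusted p = 0.0269). Prkca (0.54, limma adjusted p = 0.0198) and Prkaca (0.42, adjusted p = 0.0343) rose in ADQ, and Ptpn5 in AA (0.50, adjusted p = 0.0454). In AV, Ptpn5 (0.35, limma adjusted p = 0.151) and Prkca (0.31, adjusted p = 0.167) led. Of 15 postsynaptic scaffolds, 1 was called higher and 2 lower beside those shares, Dlgap3 (-0.37 ± 0.12, limma adjusted p = 0.0303) and Dlgap1 (-0.22 ± 0.07, adjusted p = 0.0345), both of which fell. Dlgap3 also fell in ADQ (by 0.49, limma adjusted p = 0.0326).

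Of 7 genes of co-agonist supply, 0 were called higher and 3 lower in the older rats together, where 15.7% and 16.7% of all genes were, with none past the adjusted threshold. Shmt1, which makes glycine from serine, fell in ADQ against YNG by 0.53 ± 0.15 (limma adjusted p = 0.032). Srr, the serine racemase that makes D-serine, differed by -0.34 for AV against YNG (limma p = 0.0085, adjusted p = 0.114). Of 9 genes of glutamate release and uptake, 2 were called higher and 0 lower in the older rats together. In ADQ against YNG 2 were called higher, where 13.5% of all genes were, 1 of them past the adjusted threshold. In the older rats together, of 16 other glutamate receptors 3 were called higher and 1 lower. Of 3 genes of the RNA editing enzyme family 1 was called higher. None of these passed the adjusted threshold.

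Between the older groups no partner gene passed the adjusted threshold. The smallest p in AA against AV was that of Glul, the glutamine synthetase of astrocytes (log2 -0.27, limma p = 0.00548, adjusted p = 0.999). In ADQ against AV, Slc1a4, a serine transporter (-0.31, limma p = 0.00271, adjusted p = 0.266), and Glul (-0.29, p = 0.00334, adjusted p = 0.266) were the lowest after Grip1. The partner differences past the adjusted threshold number 21, in 12 genes. All 21 kept their sign with the log2 total as a covariate and without the 9 rats of high total signal, but 0 remained past the adjusted threshold in either, with 10 and 10 at an unadjusted limma p below 0.05, among them Grip2 (0.45, p = 0.0226, and 0.61, p = 0.00629) and Frrs1l (-0.31, p = 0.0219, and -0.38, p = 0.0148) in the older rats together. In series a alone all 21 kept their sign with an unadjusted p below 0.05, 13 of them past the adjusted threshold, and in series b alone all 21 kept their sign, 7 with an unadjusted p below 0.05 and 0 past the adjusted threshold.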

How the data were processed

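Poly(A) RNA of the DG was sequenced on an Ion instrument, for which the labels and the methods of the study name different models. According to the methods and the submitters' processing notes, the authors aligned trimmed reads with STAR 2.5.3a to the rat rn6 build in Partek Flow and scaled the counted reads by the median ratio. The signal values they deposited are not whole numbers, so no count model was fitted. Annotation, counting model and raw depth are not given in the sources used here.

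The 24694 rows were summed to 18347 gene identifiers. Genes with a mean signal of at least 5 (15598) were tested with limma 3.58.1 (R 4.3.3, trended empirical Bayes) on log2(signal + 1), which slightly understates changes of low genes, with all 44 rats in 1 fit of 4 groups and no covariates, 2-sided. Nothing in the labels pairs rats across groups. Ratios and correlations were tested with 100000 permutations, within groups for correlations, or exactly where a group had fewer than 10 rats (scipy 1.17.1). The fit was tested on simulated data. Subunits and called partner genes were named, with the leading genes of each list and the 3 genes most like Grin1, Grin2a, Grin2b, Gria1 and Gria2. The values of 1 partner gene are not reported here. The members, the lists of partner and marker genes and the 2 rat series were chosen with earlier results of these data known. Alternatives were other pseudocounts, filters and scaling, the highest row, fits of only the groups compared, rat series or CA1 and CA3 marker scores as covariates, array weights, each series alone and omission of each rat. The row fit, the settings on total signal and the ratio in all older rats were added after seeing the data.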

Additional observations from a re-analysis of the deposited data

Results flagged for a closer look

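The limma interaction of group and series was computed for 10 subunits in each of 6 comparisons of 2 groups. In 5 cases its unadjusted p was below 0.05, none with an adjusted p below 0.05. For Grin2a, the log2 difference in series b minus that in series a was -0.96 in AV against YNG (p = 0.00239), -1.03 in AA against YNG (p = 0.00162) and -0.62 in ADQ against YNG (p = 0.0475), and these 3 cases share the same YNG rats, 6 of series a and 4 of series b. For Grin2c it was -0.47 in AA against AV (0.35 in series a and -0.12 in series b, p = 0.00579) and -0.47 in AA against ADQ (p = 0.0072), and both share the AA rats of series a, among them rat 3988. Over all genes, the interaction had an unadjusted p below 0.05 in 3406 of 15598 genes for AV against YNG and in 734 for AA against AV.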

How the results depend on the processing

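Other pseudocounts (0.1 and 5), no filter, a mean signal of at least 20 and rat series as a covariate changed neither the direction nor the side of the unadjusted threshold of any of 40 subunit differences that were recomputed in AV against YNG, AA against AV, ADQ against AV and the older rats against YNG. By adjusted p, Gria1 in the older rats against YNG did cross the threshold with rat series as a covariate, as given above. The settings on total signal, chosen after seeing the data, and series b alone gave most sign changes, with 9 for the total as a covariate, 11 without the rats of high total and 12 in series b. Of 560 recomputed differences 51 changed sign, 31 lost and 6 gained a call, and no difference was called with both signs. In these 4 comparisons 1 called difference turned its sign, that of Grin2a in the older rats against YNG in series b. No paired analysis was possible because the labels give no replicate numbers shared by rats of different groups. Raw depth is unknown, so precision is known only from the spread between rats, and the cause of the changes below was not tested, beyond the smaller number of rats in each series.

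The number of called subunits fell in AV against YNG from 2 to 1 with upper quartile scaling, where 21.1% of all genes were called. It fell to 0 with only the 2 groups in the fit, where 16.8% of all genes were. In AA against AV 0 subunits in place of 1 were called with the highest row of each gene, only the 2 groups or array weights. In those settings 4.32%, 3.1% and 5.9% of all genes were called. In AA against ADQ 1 subunit in place of 2 was called with the highest row, only the 2 groups, array weights or series a alone. There 4.34%, 5.61%, 10.2% and 6% of all genes were called. Array weights gave 5 in place of 3 in ADQ against YNG and 1 in place of 0 in ADQ against AV, where they called 51.9% and 12.4% of all genes. With total signal as a covariate the number of called subunits was 1 in AA against YNG and 0 in AV or ADQ against YNG, the older rats against YNG and AA against AV, where 7.71%, 11.6%, 7.44%, 9.62% and 4.03% of all genes were called. Without the rats of high total it was 0 in AV or ADQ against YNG, the older rats against YNG and AA against AV, where 11.5%, 6.06%, 9.1% and 3.4% of all genes were. In series b alone, with 22 rats, it was 1 in ADQ against AV and 0 in every other comparison, with 4.15% to 12.4% of all genes called. Leaving out each rat in turn gave 0 to 2 in AV against YNG, 1 to 4 in ADQ against YNG, 2 to 4 in the older rats against YNG, 0 to 1 in AA against AV and 1 to 2 in AA against ADQ.

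The following log2 differences changed sign. In AV against YNG they were 0.0041 in Gria2 with CA1 and CA3 scores, 0.028 in Gria2 with the highest row, 0.080 in Gria2 in series a, 0.0048 in Grin1 and 0.015 in Gria2 with upper quartile scaling, -0.0069 in Gria4, -0.062 in Gria3 and 0.042 in Grin1 with the total as a covariate, and 0.061 in Grin2c, -0.11 in Gria3, 0.0029 in Grin1 and 0.031 in Grin2d without the rats of high total. In series b they were 0.038 in Grin2c, -0.11 in Gria3, 0.075 in Grin1, 0.078 in Grin2d and -0.31 in Grin2a. In the older rats against YNG they were -0.037 in Grin1 with array weights, -0.022 in Grin1 with the highest row, -0.11 in Grin2d and 0.0032 in Gria2 in series a, -0.15 in Grin2a in series b, 0.0054 in Gria2 with upper quartile scaling, -0.025 in Grin3a and -0.077 in Gria3 with the total as a covariate, and 0.032 in Grin2c and -0.096 in Gria3 without the rats of high total.

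In AA against AV, array weights gave -0.048 in Grin2c, -0.33 in Grin3a, 0.066 in Grin2b and -0.038 in Grin2a. The highest row gave -0.00018 in Gria4, series a -0.17 in Gria3 and 0.057 in Gria1, and series b -0.12 in Grin2c, -0.20 in Grin3a, 0.014 in Grin2b and 0.00018 in Gria2. The total as a covariate gave -0.047 in Grin3a, -0.063 in Gria3 and 0.010 in Grin2b, and omission of the rats of high total -0.068 in Grin3a, -0.033 in Gria3, 0.071 in Grin2b and -0.048 in Grin2a. In ADQ against AV, Grin2b was 0.030 with CA1 and CA3 scores, 0.12 with array weights, 0.11 in series b, 0.048 with the total and 0.071 without the rats of high total, and Grin1 was -0.0087 in series b.

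Leaving out each rat in turn, AA against AV ran from -0.12 to 0.11 in Grin3a, -0.012 to 0.13 in Gria4, -0.041 to 0.062 in Gria3, -0.095 to 0.0089 in Grin2b and -0.098 to 0.0052 in Gria1. Grin2b in ADQ against AV ran from -0.051 to 0.058, Grin1 in AV against YNG from -0.065 to 0.0066, Gria2 there from -0.066 to 0.015, Grin2d in the older rats from -0.00033 to 0.11, and the log2 ratio of Gria1 to Gria2 in ADQ against AV from -0.018 to 0.096.

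The log2 ratio of Gria1 to Gria2 in AV against YNG passed the threshold in series a (-0.46) and was 0.027 in series b, where AA and ADQ differed from AV by -0.15 and -0.15. The log2 ratio of Grin2b to Grin2a in AV against YNG was 0.034 in series b, and without the rats of high total AA and ADQ differed from AV by 0.12 and 0.024.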

Other observations

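The remaining marker lists were compared in the same fit. Of 6 immediate early genes, which follow recent neuronal activity, 5 were called higher in AA than in ADQ, where 2.13% of all genes were called higher, with a median log2 difference of 0.67 and none past the adjusted threshold. Relative to YNG, 3 of these 6 were called higher in AA, where 12.6% of all genes were, 1 of them past the adjusted threshold. Of 6 microglia markers, 4 were called lower in ADQ than in AV, where 5.9% of all genes were (median -0.30), as were 5 of 8 oligodendrocyte markers (median -0.32) and 4 of 5 endothelial markers (median -0.53), none past the adjusted threshold. These differences stand beside the absence of any called subunit in that comparison, and their part in it was not tested.

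In the older rats together against YNG, where 15.7% of all genes were called higher and 16.7% lower, 3 of 8 interneuron markers were called higher and 0 lower, 2 of 7 granule cell markers lower, 0 of 8 CA1 markers in either direction, 1 of 8 CA3 and mossy cell markers higher, 1 of 7 general neuronal markers higher and 2 lower, 1 of 5 astrocyte markers higher and 2 lower, 1 of 4 oligodendrocyte precursor markers lower, and 0 of 4 choroid plexus markers in either direction. Of those called higher, 1 interneuron, 1 CA3 and mossy cell and 1 general neuronal marker passed the adjusted threshold. Of those called lower, 1 granule cell, 1 general neuronal, 1 astrocyte and 1 oligodendrocyte precursor marker did.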
